A study of Mus musculus with 11 samples.

Results

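The Ly49 receptor genes of the mouse carry symbols made of Klra and a number. All 11 genes with such a symbol among the 758 genes of the normalized values were taken, whatever their level. The NanoString nCounter immune panel reads color-coded probes bound to mRNA without amplification and carries 12 such probes, and *Klra1* was not among the genes left after the authors' filter on low expression. The values come from 11 subcutaneous MC38 colon carcinomas of C57BL/6 mice. All mice were 6 to 8 weeks old and received 100000 to 200000 MC38 cells, a mouse colon carcinoma line, in the flank, and injections began 5 days later. The 5 control mice were given PBS. The other 6 mice were given hetIL-15, the complex of the IL-15 chain and the IL-15 receptor alpha chain purified from HEK293 cells, at 3 µg per IP injection and 3 injections per week. All tumors were excised 3 hours after injection number 4 and RNA was extracted from the whole tumor, so fewer cells of a type and less RNA per cell cannot be told apart. The labels do not say whether tumors of one group were collected together, and p values measure the spread between these tumors.

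Ly49 receptors are C-type lectin-like proteins of the surface of mouse natural killer (NK) cells, encoded side by side in the NK gene complex. Most of them bind classical MHC class I molecules and inhibit the cell through a phosphatase-recruiting motif of their tail, while some lack that motif and activate the cell through an adaptor. Each NK cell expresses only part of the family, and the set of Ly49 genes differs between inbred strains of mice. Some relatives are found on myeloid cells or on plasmacytoid dendritic cells instead of NK cells. IL-15 is the main survival and growth cytokine of NK cells, so the comparison asks whether mRNA of these receptors differed between tumors of mice given hetIL-15 and of mice given PBS.

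The family shares sequence, also in front of the genes. Of the 12 panel probes, 8 were matched by symbol to the C57BL/6J gene table of RefSeq, each with the accession of its probe, and 7 of these were measured here. *Klra15*, *Klra20*, *Klra21* and *Klra27* were not matched. From *Klra17* to *Klra2* on chromosome 6, the protein-coding Ly49 genes of that table lie in the order *Klra17*, *Klra5*, *Klra6*, *Klra4*, *Klra8*, *Klra9*, *Klra7*, *Klra10*, *Klra3*, *Klra1*, *Klra2*. Of these, *Klra8*, *Klra9* and *Klra10* had no probe among the 12. The 4 stretches below, from RefSeq promoter windows of build GRCm38.p6, are shown because the genes behind them had the largest difference between groups (*Klra7*), the next largest (*Klra5*), one of the smallest (*Klra4*) and the most negative one (*Klra2*). Each is 60 bases long, lies on the minus strand before the annotated start and is written 5′ to 3′, and capitals mark the longest run that the 250 bases before the starts of these 4 genes have in common, 9 bases long.
Klra7, chr6:130233369-130233428: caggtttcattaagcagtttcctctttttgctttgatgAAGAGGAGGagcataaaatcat
Klra5, chr6:129913272-129913331: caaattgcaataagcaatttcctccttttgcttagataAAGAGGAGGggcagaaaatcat
Klra4, chr6:130067308-130067367: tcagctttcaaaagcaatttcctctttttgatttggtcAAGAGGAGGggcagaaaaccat
Klra2, chr6:131247391-131247450: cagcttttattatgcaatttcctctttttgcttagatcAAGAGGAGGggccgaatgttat

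Without gaps, *Klra7* and *Klra5* share 50 of these 60 bases, *Klra7* and *Klra2* 48, and *Klra7* and *Klra4* 45. The run in capitals, AAGAGGAGG, was found on either strand in 1.21% of 32851 RefSeq promoter windows and in 5 of the 8 windows of the measured members, those of *Klra5*, *Klra6*, *Klra4*, *Klra7* and *Klra2*. Of these 5, 4 hold it by construction, since it was defined on them, and *Klra6* is the only other. The STAT motif TTCNNNGAA, the kind of site that STAT5 binds after IL-15 signals, reads the same on both strands and was found in 7.02% of all windows. Among the members it lay in the window of an inner start of *Klra7* and in that of *Klra2*. It was 1 of 4 motifs of transcription factors searched. The other motifs, AP-1 (TGANTCA), RUNX (TGTGGT) and T-box (TCACACC), were found in 0 of the 8 member windows. Over all windows they were found in 6.75%, 14.05% and 3.33%. A match describes letters and not a bound site. The target sequences of the probes are not used here, and closely related Ly49 transcripts may bind the same probe, so the assignment of a signal to one member is uncertain.

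The values are log2 values that the authors quantile normalized between tumors. Their sum per tumor, off the log2 scale, ran from 999186 to 999245, and the depth per tumor is not used here. The first principal component of all genes set PBS tumor 4 (−8.48) and PBS tumor 5 (−12.3) apart from the other 9 tumors, which ranged from −4.06 to 9.42. The component also ordered the groups. PBS tumors lay between −12.3 and 0.54 and hetIL-15 tumors between 0.69 and 9.42. PBS tumors 4 and 5 are thus the controls farthest from the hetIL-15 tumors on it. Results on *Klra7* and on the numbers of genes are also given without these 2 tumors. Differences are hetIL-15 minus PBS on the log2 scale from limma, p values were adjusted by Benjamini-Hochberg over 758 genes, and rose and fell stand for an adjusted p under 0.05. In this fit 16 genes (2.11%) passed, of which 13 rose (1.72%) and 3 fell (0.396%). Without PBS tumors 4 and 5, 5 genes passed.

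None of the 11 Ly49 receptor genes passed the test, against 2.11% of all genes. Of the 11, only 7 were matched to the gene table of the strain. *Klra7* had by far the largest difference of the family, 2.22, and was the only member whose groups did not overlap. At an unadjusted p under 0.05, 3 of the 11 passed, *Klra7* and *Klra5* with higher and *Klra2* with lower means in hetIL-15 tumors, and over all genes 11.9% did so (7.39% higher, 4.49% lower). Groups did not overlap in 2.51% of all genes, and in 1.85% with all hetIL-15 tumors higher. A difference of 1 or more in either direction was found for *Klra7* and *Klra5*, and for 3.3% of all genes. The median difference of the 11 members was 0.07, and that of all 758 genes was −0.03.

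**Figure D1:**
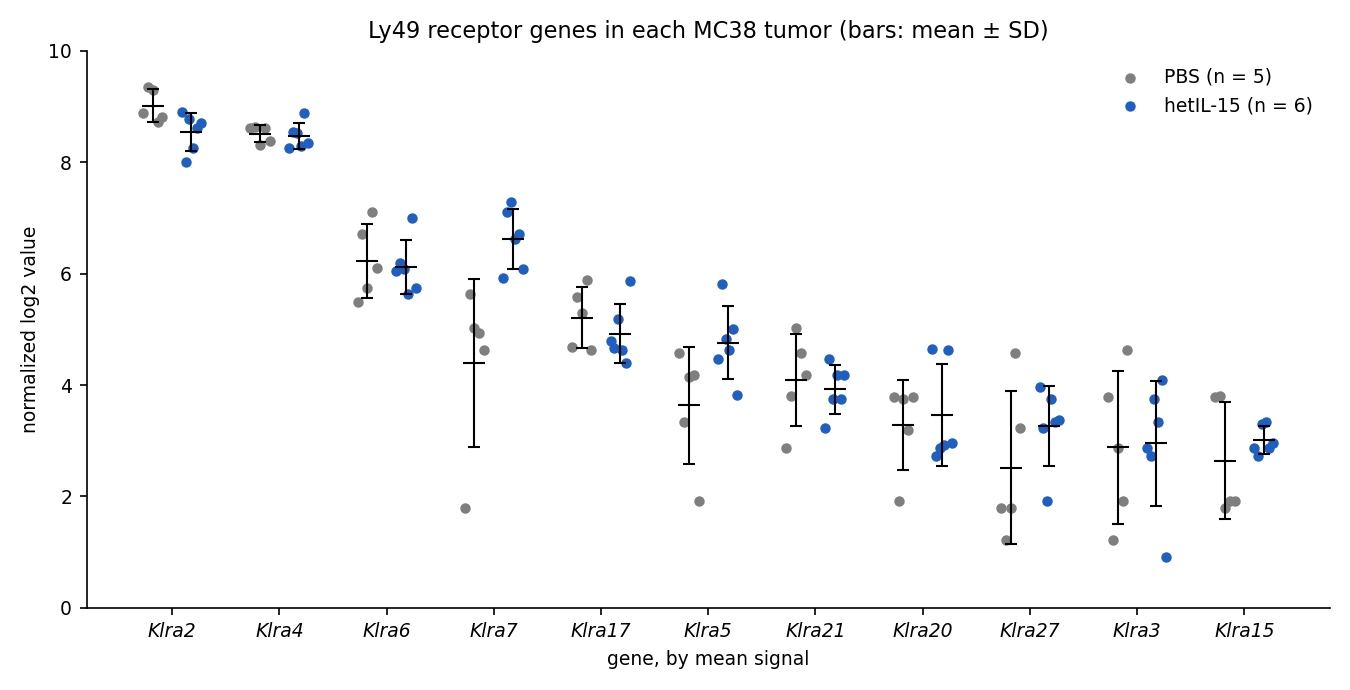
Normalized log2 values (vertical axis) of the 11 Ly49 receptor genes, ordered by mean signal, in 5 PBS tumors (gray) and 6 hetIL-15 tumors (blue). Each point is a tumor and bars are mean ± SD. The groups lie apart only for *Klra7*, where 1 PBS tumor lies at 1.79, far under the other 4.

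*Klra7* encodes Ly49G, an inhibitory receptor of NK cells. Its log2 value was 1.79, 5.63, 5.02, 4.93 and 4.62 in PBS tumors 1 to 5. It was 5.92, 7.10, 7.29, 6.63, 6.70 and 6.09 in hetIL-15 tumors 1 to 6. Each hetIL-15 tumor thus lay above each PBS tumor, with the nearest pair, hetIL-15 tumor 1 and PBS tumor 2, 5.92 and 5.63. The PBS mean was 4.40 ± 1.51 (SD, n = 5) and the hetIL-15 mean 6.62 ± 0.54 (SD, n = 6), a 4.67-fold difference. The log2 difference of 2.22 (SE 0.60, 95% interval 0.89 to 3.55) was the second largest of all 758 genes, but by its p, *Klra7* held place 20. Its adjusted p from limma was 0.139, and 1 after Bonferroni adjustment, which the methods name. The exact two-sided permutation test over all 462 groupings of the tumors gave p = 0.00216, the smallest it can give, and 0.149 when adjusted over all genes, which is also the smallest adjusted value of that test.

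The test result of *Klra7* turned on 1 tumor. In PBS tumor 1 *Klra7* sat at the lowest value that occurs in that tumor, 1.79, which 8 genes share, and the next value up in that tumor was 2.88. In the other 4 PBS tumors between 20.8% and 29.7% of genes lay at or under it, and in the 6 hetIL-15 tumors between 32.2% and 45.3%. The spread within groups around the fit was 1.08 for *Klra7* on the log2 scale, against a median of 0.34 over all genes, and 15 genes had a larger one. Without PBS tumor 1 it was 0.50, the difference was 1.57 (SE 0.30, 95% interval 0.90 to 2.24) and *Klra7* rose (adjusted p = 0.0349 from limma). Leaving out any of the other 10 tumors gave differences between 2.09 and 2.53 with adjusted p values between 0.0766 and 0.279. Without PBS tumors 4 and 5 the difference was 2.47 (adjusted p = 0.257). *Klra7* also passed where low values had less weight. With all values under the 5th percentile, 3.31, raised to it, the difference was 1.92 (adjusted p = 0.0248), and with 16 added to each value off the log2 scale it was 1.49 (adjusted p = 0.0217). All of these differences were positive, but the separated groups fixed that sign where tumors were left out or low values had less weight. The size of the difference moved with PBS tumor 1.

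**Figure D2:**
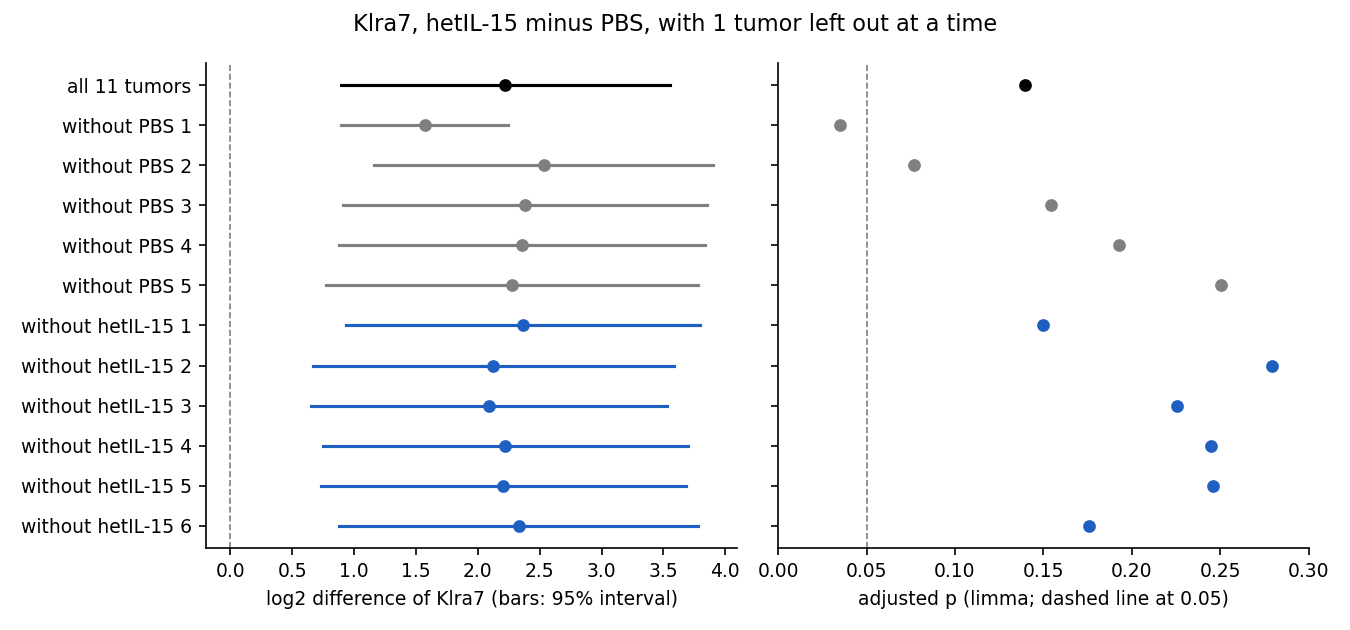
Log2 difference of *Klra7* with its 95% interval (left) and adjusted p from limma (right) with all 11 tumors (black) and with each PBS tumor (gray) or hetIL-15 tumor (blue) left out. Each interval lies above 0, and the adjusted p lies under 0.05 (dashed line) only without PBS tumor 1, at 0.0349.

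Of 6 NK cell markers, 1 rose. The mean log2 value of 6 markers, *Ncr1*, *Klrb1c*, *Klrd1*, *Itga2*, *Eomes* and *Klrk1*, lay between 6.25 and 6.64 in PBS tumors and between 6.47 and 6.85 in hetIL-15 tumors, a difference of 0.35 with overlapping groups, which was not tested. Of the 6, only *Ncr1*, which encodes the activating receptor NKp46, rose (difference 1.10, SE 0.19, adjusted p = 0.0162 from limma). *Klrb1c* (0.72, adjusted p = 0.291), *Klrd1* (0.53, adjusted p = 0.369) and *Klrk1* (0.27, adjusted p = 0.540) had positive differences. The integrin *Itga2* (−0.41, adjusted p = 0.586) and the transcription factor *Eomes* (−0.15, adjusted p = 0.891) had negative differences. At an unadjusted p under 0.05 in limma, 3 of the 6 were higher and 0 lower, beside 7.39% and 4.49% of all genes. Taken relative to the marker mean of the same tumor, *Klra7* was higher by 1.88 on the log2 scale with no overlap of the groups (exact two-sided permutation p = 0.00216). Without PBS tumor 1 this was 1.23 (exact permutation p = 0.00952). Taken relative to *Ncr1*, the marker that moved most, *Klra7* was higher by 1.12 (exact permutation p = 0.0152) with overlapping groups. Without PBS tumor 1 the difference to *Ncr1* was 0.42 (exact permutation p = 0.0619). Leaving out hetIL-15 tumor 1, 2, 3 or 5 gave differences to *Ncr1* between 1.02 and 1.13, each with an exact permutation p of 0.0556. These 2 ratios were chosen after seeing the data, and their p values are not adjusted. The marker mean varied little within groups (SD 0.15 with PBS and 0.14 with hetIL-15), so the first ratio is not a separate measurement from that of *Klra7* itself. Whether the marker mean follows NK cell numbers was not tested. The paper reports more NK cells in MC38 tumors with hetIL-15 by flow cytometry.

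**Figure D3:**
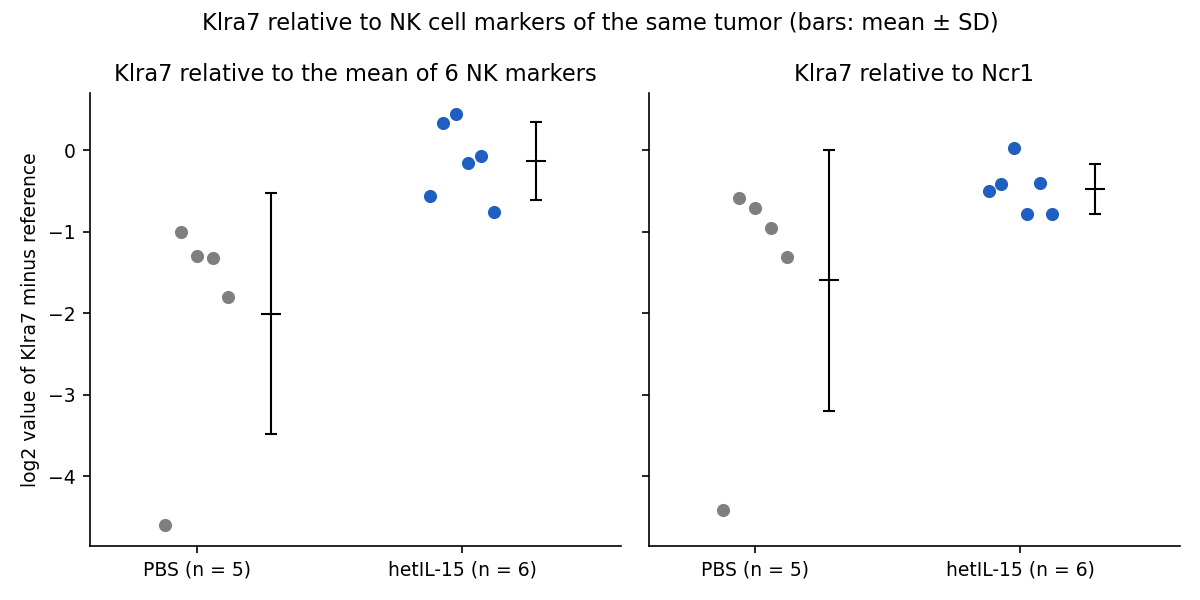
Log2 value of *Klra7* minus the mean log2 value of 6 NK cell markers (left) or minus that of *Ncr1* (right) in the same tumor, for 5 PBS tumors (gray) and 6 hetIL-15 tumors (blue), with mean ± SD. Only differences between tumors can be read, since probes differ in efficiency. The groups lie apart on the left and overlap on the right.

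The genes whose order of tumors was most like that of *Klra7* were *Gzma*, *Il6ra*, *Ccl28*, *Il2rb* and *Prf1*. Across the 11 tumors, which include the group difference, Spearman's rho with *Klra7* was 0.95 for the granzyme *Gzma*, 0.90 for the IL-6 receptor chain *Il6ra*, 0.89 for the chemokine *Ccl28*, 0.88 for *Il2rb*, a receptor chain common to IL-2 and IL-15, and 0.87 for the pore-forming protein *Prf1*. After group means were removed, rho was 0.57 for *Gzma*, 0.48 for *Il6ra*, 0.35 for *Ccl28*, 0.55 for *Il2rb* and 0.27 for *Prf1*. These are the top 5 of 754 genes and describe the same 11 tumors that gave the difference. Among the other Ly49 genes, *Klra5* had the highest rho with *Klra7*, 0.67, or 0.11 with group means removed, and *Klra2* the lowest, −0.57, or 0.11 with group means removed. With group means removed *Klra20* was the lowest, −0.64.

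*Klra5* encodes Ly49E, an inhibitory receptor known from fetal NK cells and NK cells of the liver. Its log2 value was 4.58, 3.34, 4.15, 4.17 and 1.92 in PBS tumors 1 to 5 and ran from 3.83 over a median of 4.73 to 5.82 in the 6 hetIL-15 tumors. Of the hetIL-15 tumors, 4 lay above all PBS tumors, so the groups overlapped. The difference was 1.13 (SE 0.48, 95% interval 0.07 to 2.19, adjusted p = 0.379). PBS tumor 5, at 1.92, was at the lowest value of that tumor, and without it the difference was 0.70 (adjusted p = 0.604). *Klra5* is low in signal, in rank 125 of 758 genes from the lowest mean. It passed the test in none of the alternatives run.

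The other inhibitory receptors of NK cells were *Klra6*, which encodes Ly49F, and *Klra3*, which encodes Ly49C and is known to bind H-2Kb. *Klra6* ran from 5.50 to 7.11 (median 6.09) in PBS tumors and had a median of 6.07 in hetIL-15 tumors, with a difference of −0.11 (95% interval −0.83 to 0.60, adjusted p = 0.950). All hetIL-15 tumors lay within the range of the PBS tumors. *Klra3* had a difference of 0.07 (95% interval −1.45 to 1.59, adjusted p = 0.972). At a mean log2 value of 2.92 it is the third lowest of all genes, and in 3 tumors it sat at the lowest value of the tumor. A change of 2-fold in either direction lay within the interval of *Klra3*, and was not detectable at this signal.

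*Klra4* encodes Ly49D, an activating receptor that signals through the adaptor DAP12. Its log2 value was 8.61, 8.63, 8.31, 8.62 and 8.38 in PBS tumors 1 to 5 and ran from 8.26 over a median of 8.44 to 8.88 in hetIL-15 tumors. The groups overlapped, and the spread within groups around the fit, 0.20, was the smallest of the family. The difference was −0.04 (SE 0.13, 95% interval −0.32 to 0.24, adjusted p = 0.954), or 0.05 when scaled to housekeeping genes, so its direction is not settled. The interval of this whole-tumor signal does not hold a change of 2-fold. *Klra4* lay in rank 459 of 758 genes from the lowest mean, and which cells gave its signal was not tested. The interval of *Klra7* in the same tumors starts at 0.89, and whether both genes differ in their change was not tested.

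*Klra2* encodes Ly49B, an inhibitory receptor described on myeloid cells, and gave the highest probe signal of the family, in rank 489 of 758. Its log2 value was 8.88, 9.36, 9.30, 8.72 and 8.80 in PBS tumors 1 to 5 and ran from 8.01 over a median of 8.66 to 8.90 in hetIL-15 tumors. Of the hetIL-15 tumors, 4 lay under all PBS tumors. The difference was −0.47 (SE 0.19, 95% interval −0.88 to −0.05, adjusted p = 0.358), and leaving out single tumors gave −0.54 to −0.36. It did not pass the test in any of the alternatives run, and was −0.64 without PBS tumors 4 and 5 (adjusted p = 0.390). Of 5 measured macrophage and monocyte markers, *Csf1r*, *Cd14*, *Cd68*, *Itgam* and *Mrc1*, none passed, and their summed values off the log2 scale overlapped, at 2946 to 3563 with PBS and 2856 to 3719 with hetIL-15.

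*Klra17* encodes Ly49Q, an inhibitory receptor known from plasmacytoid dendritic cells and other myeloid cells. It ran from 4.62 to 5.88 (median 5.29) with PBS and from 4.40 to 5.86 (median 4.73) with hetIL-15, with a difference of −0.29 (95% interval −0.96 to 0.38, adjusted p = 0.792). Of 4 measured genes on a list of plasmacytoid dendritic cell markers, *Bst2*, *Tlr7*, *Tlr9* and *Irf7*, none passed, and the median difference was −0.21. The defining marker *Siglech* was not among the genes analysed here. hetIL-15 tumor 6, at 5.86, was the highest of its group, and without it the difference of *Klra17* was −0.47 (adjusted p = 0.502).

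The probes of *Klra15*, *Klra20*, *Klra21* and *Klra27* gave some of the lowest signals of the table. Their ranks from the lowest mean were 2 for *Klra15*, 31 for *Klra20*, 97 for *Klra21* and 5 for *Klra27*. *Klra15* and *Klra27* each sat at the lowest value of the tumor in 3 tumors, all of them PBS tumors. The differences were 0.37 for *Klra15* (adjusted p = 0.802), 0.18 for *Klra20* (adjusted p = 0.948), −0.17 for *Klra21* (adjusted p = 0.929) and 0.74 for *Klra27* (adjusted p = 0.729). The difference of *Klra27* was 1.26 without PBS tumor 4 and 1.67 (adjusted p = 0.12) without PBS tumors 4 and 5. Each of these 4 genes had a negative and a positive difference among the alternatives run. The intervals of *Klra15*, *Klra20* and *Klra27* hold a 2-fold higher level, and that of *Klra21* ends at 0.62. None of these 4 was matched to the RefSeq gene table of this mouse strain. Whether the mice carry these genes was not tested, nor was the source of the signals. The intervals thus describe probe signals and not changes of known genes of the strain. In PBS tumor 1 the value of *Klra27* was the same as that of *Klra7*, 1.79. In that tumor *Klra7* could not be told from the lowest probes of the family. *Klra7* also had the same value as *Klra3* and *Klra17* in PBS tumor 5, 4.62, and as *Klra21* in PBS tumor 3, 5.02. In PBS tumors 2 and 4 no other member had its value.

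**Figure D4:**
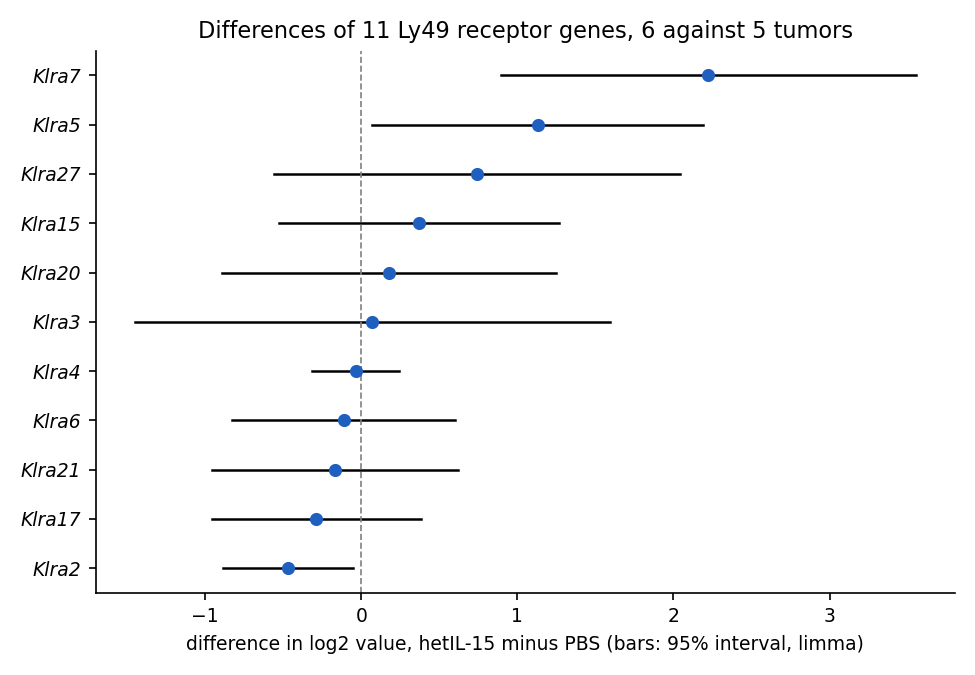
Log2 difference of each of the 11 Ly49 receptor genes, hetIL-15 minus PBS, with its 95% interval from limma, in 6 against 5 tumors. The interval of *Klra7* starts at 0.89, that of *Klra4* is the narrowest (−0.32 to 0.24), and that of *Klra3* is the widest (−1.45 to 1.59).

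Among all 758 genes only *Gzma*, with a difference of 2.47 (adjusted p = 0.00404), lay above the 2.22 of *Klra7*. Without PBS tumor 1 *Klra7* held place 8 by difference, and with any other tumor left out it held places 1 to 3. By mean signal *Klra7* held place 224 from the lowest, which also depends on how well its probe binds.

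**Figure D5:**
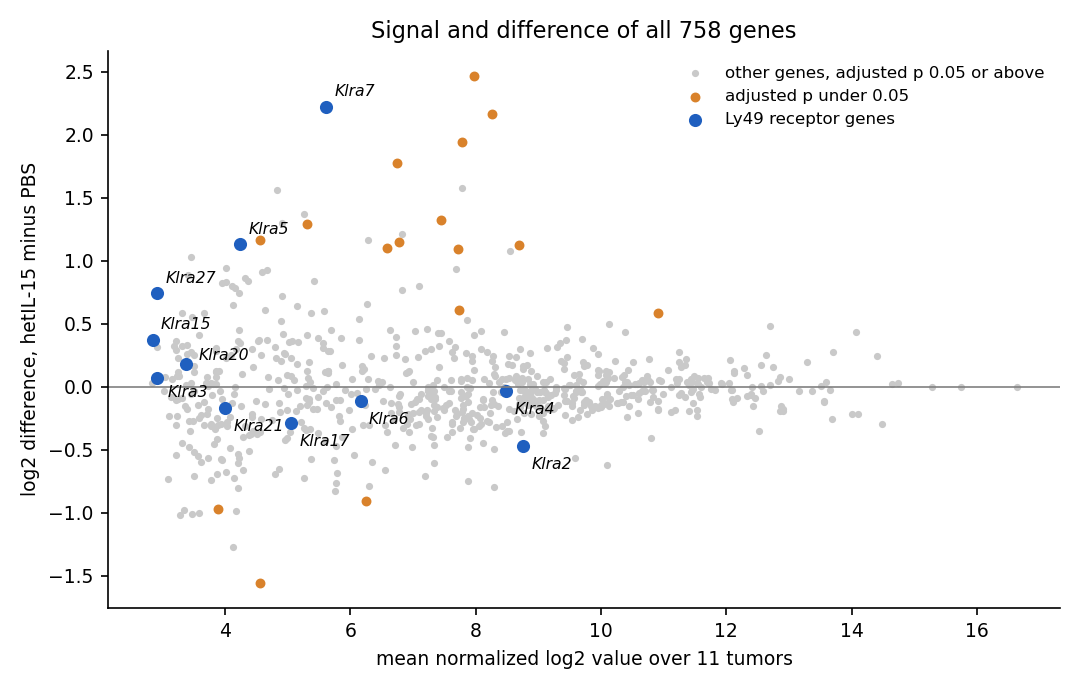
Mean normalized log2 value over 11 tumors (horizontal axis) and log2 difference, hetIL-15 minus PBS (vertical axis), of all 758 genes. Blue points are the 11 Ly49 receptor genes, orange points the 16 genes with an adjusted p under 0.05, and gray points the rest. *Klra7* lies at 2.22, and the lowest probes of the family lie at the left edge.

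Genes of the ligands and signaling partners of Ly49 receptors are given beside the share of all genes that passed, 2.11%, or 11.9% at an unadjusted p under 0.05, from which counts of 0 in lists of this size do not stand apart. Of 17 measured genes for MHC class I ligands, related ligands and peptide loading, 0 rose, 0 fell and 17 did not pass, and at an unadjusted p under 0.05 limma found 1, which was lower. Their median difference was 0.03. The classical class I gene *H2-K1* had a difference of 0.20 (adjusted p = 0.540). That of *H2-D1* was 0.02 (adjusted p = 0.954). The extremes of the list were *Mill2* at −0.66 (adjusted p = 0.471) and *H2-Q10* at 0.42 (adjusted p = 0.600). Of 15 measured adaptors and signaling molecules, 0 rose, 0 fell and 15 did not pass, with 1 lower at an unadjusted p under 0.05 and a median of −0.04. The adaptor *Hcst*, which encodes DAP10, had a difference of 0.21 (adjusted p = 0.866), *Inpp5d*, the phosphatase SHIP1 that inhibitory receptors recruit, one of −0.26 (adjusted p = 0.540), the kinase *Syk* one of −0.36 (adjusted p = 0.228) and the kinase *Zap70* one of 0.37 (adjusted p = 0.641). *Tyrobp*, which encodes DAP12, was not among the genes analysed here.

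Among other genes known from NK cells, part of the surface receptors and the cytotoxic effectors rose, beside 1.72% of all genes. Of 25 measured NK receptors and markers outside the Ly49 family, *Klrc1*, *Ncr1*, *Il2rb* and *Cd69* rose, 0 fell and 21 did not pass, with a median of 0.09. Before adjustment, limma gave a p under 0.05 for 8 with a higher mean in hetIL-15 tumors and 1 with a lower mean. *Klrc1*, which encodes NKG2A, an inhibitory receptor for a nonclassical class I molecule, had the highest difference of this list, 1.32 (SE 0.25, adjusted p = 0.0227), and the chemokine receptor *Cx3cr1* the lowest, −0.71 (SE 0.26, adjusted p = 0.318). The difference of *Klra7* was larger than that of *Klrc1* and its standard error was 0.60 against 0.25. Of 14 transcription factors of NK cells 0 passed by limma, with a median of −0.05 (unadjusted p under 0.05 in 2, *Tbx21* and *Tcf7*). These were also the extremes, *Tbx21*, which encodes T-bet (0.94, adjusted p = 0.396), and *Tcf7*, which encodes TCF1 (−0.44, adjusted p = 0.316). Of 14 cytotoxic effector genes and chemokines, 6 rose (*Gzma*, *Gzmb*, *Prf1*, *Fasl*, *Ctsw* and *Xcl1*) and 0 fell, with a median of 0.83. Before adjustment, 8 of the 14 had a p under 0.05 in limma with a higher mean, beside 7.39% of all genes. These genes are not specific to NK cells. The paper also reports the proteins of *Gzmb* and *Xcl1* in T cells of the tumors. T cell markers overlapped between groups, with 0 of 7 passing by limma, 0 at an unadjusted p under 0.05 and a median of 0.07. Their summed values off the log2 scale lay between 256 and 440 with PBS and between 278 and 451 with hetIL-15. By flow cytometry, the paper reports more NK cells and more CD8+ T cells in MC38 tumors of mice given hetIL-15. That count was made a day after the last injection, later than the RNA samples here. The marker values here thus do not show that the numbers of these cells were unchanged. The part of NK cell numbers in the difference of *Klra7* was not tested.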

How the data were processed

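RNA of 11 MC38 tumors, 5 PBS and 6 hetIL-15, was counted on the nCounter PanCancer Immune Profiling Panel. The deposited log2 values were made by the authors from probe counts by removing low expressed genes, log transformation and quantile normalization, which left 758 of 780 genes. Quantile normalization makes the sets of values of the tumors alike. The lowest values are coarse steps shared by many genes, and they differ between tumors. The lowest value of a tumor ran from 1.21 to 1.92 with PBS and from 0.92 to 1.64 with hetIL-15. Distinct values per tumor numbered 300 to 353 with PBS and 339 to 375 with hetIL-15. The low end was thus coarser in most PBS tumors. Its part in the differences of genes at the lowest values was not tested. A table of probe counts gave only probe classes, names and accessions: the names of its 11 count columns fit none of the tumors, and they were not used, so depth and background per tumor are not given here.

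Tumors were grouped by the treatment label. limma 3.58.1 in R 4.3.3 (lmFit and eBayes, no covariates) was fitted to all 758 genes without a further filter or pseudocount, as the methods name limma. Exact permutation tests ran over all 462 groupings. The fit was tested on simulated data with independent normal noise. They held no shared low steps and no outlying tumor, so that test does not cover these features of the data. The replicate numbers were not taken as pairs in the main fit, since no label says that same-numbered tumors belong together. Correlations of same-numbered tumors, group means removed, lay between −0.05 and 0.13.

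The members were chosen by symbol, and the lists, tests and alternatives were chosen from general knowledge with earlier results of these data known. Named genes were all members, called or extreme genes of each list, and the 5 genes of highest Spearman correlation with *Klra7*. *H2-K1*, *H2-D1*, *Hcst* and *Inpp5d* were named for their role after values were seen. Alternatives were other scalings, a filter or floor on low values, a pseudocount of 16, other variance priors, tumor weights, exact tests, Bonferroni, the replicate number as a block and leaving out tumors. Python 3.11.15 with matplotlib 3.10.9 drew the figures.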

Additional observations from a re-analysis of the deposited data

Results flagged for a closer look

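*Klra7* in PBS tumor 1 had a log2 value of 1.79, and the other 4 PBS tumors lay between 4.62 and 5.63. The gap to the nearest of them was 0.737 of the range of the group, above Dixon's 95% critical value for 5 samples. *Klra27* in hetIL-15 tumor 3 had a log2 value of 1.92, and the other 5 hetIL-15 tumors lay between 3.23 and 3.96, with a gap of 0.643 of the range. Both groups of each of 11 members were checked, 22 in all, and chance marks about 1 in 20.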

How the results depend on the processing

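The number of Ly49 receptor genes called was 0 in the main analysis and 1, *Klra7*, with low values raised to the 5th percentile or with 16 added. Leaving out single tumors gave 0 to 1, with the call only without PBS replicate 1. The difference of *Klra7* was then between 1.57 and 2.53, against 1.92 with the raised low values and 1.49 with 16 added. With the replicate number as a block it was 2.33 (adjusted p = 0.0832), 5 of all genes and 4 of the 85 genes in the 5 lists on ligands, signaling and NK cells passed, and the call on no Ly49 gene changed. The main numbers were 16 and 10. Both were 0 by the exact Mann-Whitney and permutation tests, whose smallest adjusted p values were 0.173 and 0.149, 4 and 4 with Bonferroni, and 5 and 5 without PBS replicates 4 and 5. With 1 tumor left out they lay between 8 and 15, and between 5 and 10. Relative to *Ncr1*, the difference of *Klra7* lay between 0.42 and 1.37 with 1 tumor left out and was 1.43 without PBS replicates 4 and 5 (exact permutation p = 0.0714, where 6 against 3 tumors were compared). The cause was not tested.

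The differences of 7 members changed sign in at least 1 alternative. *Klra3* was −0.15 with raised low values, −0.017 with 16 added, −0.12 with tumor weights and −0.35 to 0.50 with 1 tumor left out. *Klra4* was 0.050 when scaled to housekeeping genes and −0.12 to 0.0056 with 1 tumor left out. *Klra6* was 0.019 with tumor weights, 0.14 without PBS replicates 4 and 5 and −0.29 to 0.11 with 1 tumor left out. *Klra15* was −0.19 with raised low values and −0.11 without PBS replicates 4 and 5, and *Klra27* was −0.056 with raised low values. *Klra21* was 0.023 without PBS replicates 4 and 5 and −0.47 to 0.066 with 1 tumor left out, and *Klra20* −0.16 to 0.32. *Klra2*, *Klra5*, *Klra7* and *Klra17* kept their direction in all alternatives run. For *Klra7* the separated groups fixed the sign when tumors were left out or low values were raised. Scaling to housekeeping genes moved the median difference of all genes from −0.03 to 0.05. *Klra3*, *Klra15* and *Klra27* each sat at the lowest value of the tumor in 3 tumors.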
